A study of Rattus norvegicus with 12 samples.

Results

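Gad1, Gad2, Slc32a1 and Slc17a7, which between them mark GABA-releasing and glutamate-releasing neurons, were followed through total and ribosome-enriched RNA of rat cortical neurons. The genes were picked by identifier, which gave 4 of the 25424 genes in the deposited table, and all 4 passed the filter on low values, a mean of 1 FPKM or more, which left 12150 genes for testing. FPKM is the number of sequenced fragments per kilobase of transcript, scaled to the size of the library, so it can be compared between genes of different length. Primary cortical neurons of Sprague-Dawley rat embryos were exposed for 24 h to vehicle, a HEPES buffer, or to 100 nM synthetic rat amyloid-β peptide (Aβ) and collected at 28 days in vitro. In all groups, treated and control, the medium also held d,l-APV, a blocker of NMDA receptors given to limit excitotoxic death, and cycloheximide, which halts elongating ribosomes, was present before lysis. Either total cytosolic RNA or the RNA of a pellet spun through a sucrose cushion, which is enriched in ribosomes, was sequenced. This made 4 groups of 3 libraries: vehicle ribosome, Aβ ribosome, vehicle total and Aβ total.

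A neuron that releases GABA makes it from glutamate with glutamic acid decarboxylase, which exists in a pair of forms from separate genes. Gad1 encodes GAD67, which is spread through the cell and makes most of its GABA, and Gad2 encodes GAD65, which sits at nerve terminals and is tied to vesicle filling. Slc32a1 encodes VIAAT (also VGAT), the carrier that loads GABA or glycine into synaptic vesicles. Slc17a7 encodes VGLUT1, the vesicular glutamate transporter of most cortical excitatory neurons, so the first 3 genes mark inhibitory neurons and the fourth marks excitatory ones. Preparations of embryonic cortex hold both kinds of neuron and usually some glia.

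The identifiers of the genes in the table were ENSRNOG00000000007 (Gad1), ENSRNOG00000018200 (Gad2), ENSRNOG00000015393 (Slc32a1) and ENSRNOG00000020650 (Slc17a7). The lengths behind their FPKM, recovered from the steps between values, were 3196, 1967, 2385 and 2931 bases in that order. Libraries are named here by the number in their titles, which runs from 1 to 12. Each run of 4 numbers (1 to 4, 5 to 8 and 9 to 12) held 1 library of every group, but the labels do not say that a run is a culture or a day. They also do not say that the 3 libraries of a group came from separate cultures, so the p-values measure the spread between these libraries. The study describes paired sequencing of total and ribosome-enriched RNA and refers to biological replicates. Its text does not say which libraries form a pair. The main fits left pairing out, and the runs served as a block in an alternative fit.

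Mapped fragments, recovered from the steps between FPKM values and not given by the sources, ranged from 14089739 to 20036998 per library. Ribosome libraries 1 and 2 were the shallowest of the 12, with 14312668 and 14089739. In the total libraries the 20 most abundant genes took 8.87% to 9.61% of all fragments, whereas in ribosome libraries 1 and 2 they took 19.5% and 21.4% and in the other 4 ribosome libraries 25.8% to 28.7%. For 3 libraries, which the sources do not name, a more efficient bead capture was used because RNA was scarce. Other markers of neurons and glia could not be looked up, because the table's identifiers matched none in the gene table used here, so the makeup of the cultures was checked by these 4 genes alone.

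In total RNA the glutamate transporter stood far above the GABA genes, and all 4 varied little. Slc17a7 lay at 468, 475 and 503 FPKM in vehicle total libraries 4, 8 and 12. In Aβ total libraries 3, 7 and 11 it was at 472, 480 and 476 FPKM. It was the highest of the 4 genes in each of them, and averaged over all 12 libraries its mean of 380.0 FPKM exceeded that of 98.6% of the genes tested. Slc32a1 measured 49.0, 47.1 and 55.6 FPKM in vehicle and 48.1, 48.6 and 54.7 FPKM in Aβ total RNA. Gad1 measured 42.8, 38.3 and 43.7 FPKM in vehicle and 43.2, 41.3 and 41.4 FPKM in Aβ total RNA. Gad2 measured 32.1, 36.0 and 35.2 FPKM in vehicle and 34.4, 35.3 and 41.7 FPKM in Aβ total RNA. The vesicular carrier Slc32a1 thus lay above both decarboxylase genes in each total library, while the ranges of Gad1 and Gad2 overlapped. As bulk RNA, these levels cannot tell fewer cells of a type from less RNA per cell.

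In ribosome-enriched RNA the genes of the GABA pathway no longer moved in a narrow band. Gad1 was at 32.3, 74.3 and 73.0 FPKM in vehicle libraries 2, 6 and 10. In Aβ libraries 1, 5 and 9 it was at 35.0, 79.3 and 82.3 FPKM. In both treatments the first library was below every total library in FPKM and the others were well above them all. After division by a size factor per library (scaled FPKM), Gad1 in libraries 2 and 1 was at 36.5 and 35.7, inside the 33.1 to 40.7 of the total libraries. Gad2 was at 5.16, 37.7 and 56.8 FPKM in the vehicle libraries. In the Aβ libraries it was at 12.4, 34.5 and 54.96 FPKM. Libraries 1 and 2 were therefore the low ones for the terminal form of the enzyme too, and libraries 9 and 10 the high ones.

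Counting error was small beside the low values of Gad2. The 5.16 FPKM of library 2 stood for 143 fragments, with an exact Poisson 95% interval of 4.35 to 6.08 FPKM. The 12.4 FPKM of library 1 stood for 350 fragments and had an interval of 11.2 to 13.8 FPKM. The other 10 libraries had 1099 to 1820 Gad2 fragments, and these intervals cover counting error only. The highest ribosome library exceeded the lowest 11.01-fold for Gad2.

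Within each treatment Slc32a1 had the same order of libraries as Gad2, over a smaller range. It was at 40.1, 41.8 and 54.9 FPKM in vehicle ribosome libraries and at 33.2, 44.5 and 64.1 FPKM in Aβ ribosome libraries. Slc17a7 ran the other way. It was at 373, 295 and 223 FPKM in vehicle ribosome libraries 2, 6 and 10 and at 299, 269 and 225 FPKM in Aβ ribosome libraries 1, 5 and 9. In FPKM the glutamate transporter was thus highest, within each treatment, where the GABA genes were low. All 6 of its ribosome values lay below all 6 of its total values, as was the case for 33.2% of the genes tested on this unscaled FPKM. After scaling, Slc17a7 was nearly level in Aβ ribosome libraries 1 and 5, at 305 and 300.5, and lower in library 9, at 246. In vehicle ribosome libraries 2, 6 and 10 its scaled values were 421, 357 and 234.

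The size factors (median of ratios over genes) were used because the ribosome libraries spend more of their fragments on few genes. In scaled FPKM Gad1 averaged 67.6 ± 27.8 (SD, n = 3) in vehicle ribosome and 71.3 ± 30.9 in Aβ ribosome RNA, against 37.0 ± 3.82 and 37.5 ± 1.002 in the total RNA of the same treatments. Gad2 averaged 37.0 ± 27.9 and 37.0 ± 23.7 in ribosome RNA, against 30.6 ± 2.42 and 33.2 ± 4.56 in total RNA. The SDs of both decarboxylase genes were thus several times larger in the pellet. Slc32a1 averaged 51.1 ± 6.13 and 51.1 ± 18.09 in ribosome RNA, against 45.0 ± 5.92 and 45.2 ± 4.65 in total RNA. Slc17a7 averaged 337 ± 95.3 and 284 ± 32.7 in ribosome RNA, against 429 ± 34.5 and 425 ± 13.0 in total RNA.

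**Figure D1:**
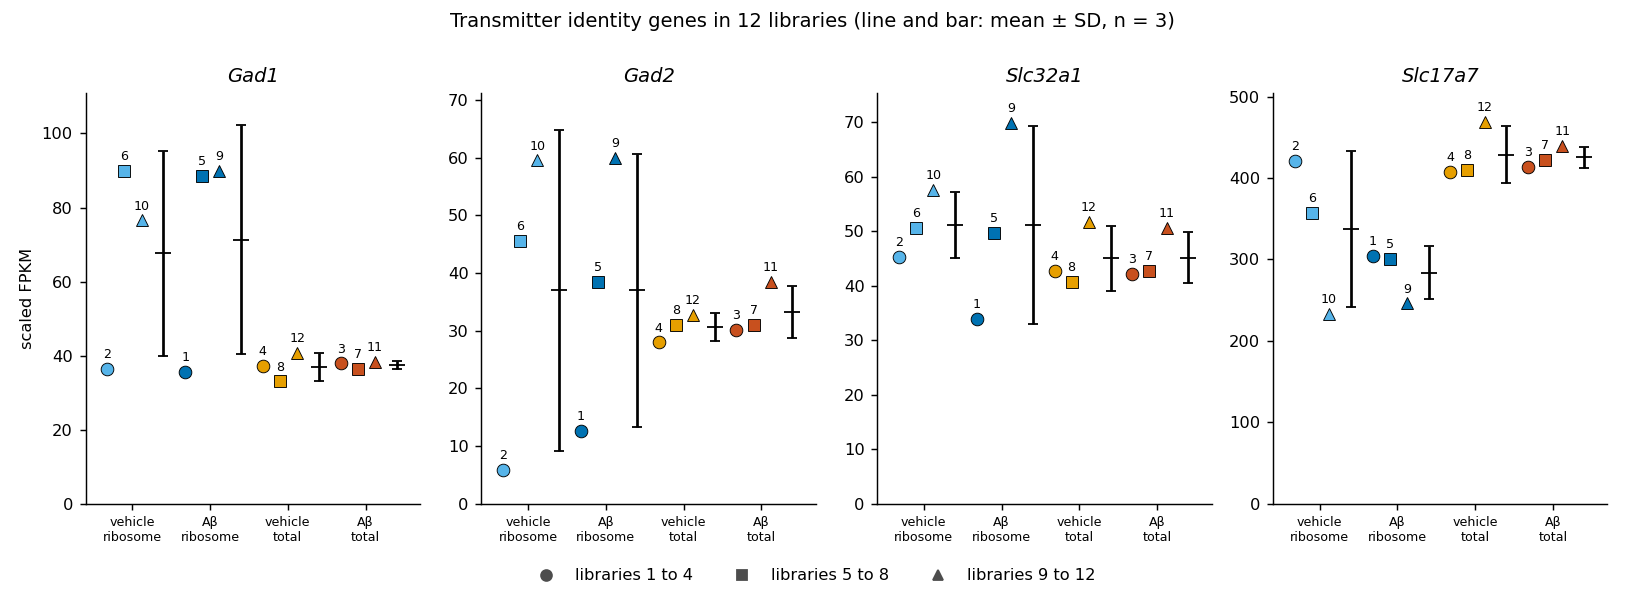
Scaled FPKM (linear axes from 0) of the 4 genes in each library, grouped by treatment and fraction; points are libraries with their title number, shapes mark the runs of 4 numbers, and lines with bars are means ± SD of 3 libraries. The ribosome values of Gad2 spread from 5.82 to 60.0 while its total values stay between 27.98 and 38.5, and Slc17a7 is lowest in libraries 9 and 10, where Gad2 and Slc32a1 are highest.

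The first question of the design was which mRNAs are over- or under-represented on ribosomes relative to total RNA, asked in each treatment on its own. Differences are given as ribosome minus total on the scale of log2(scaled FPKM + 1) and tested with limma, with p-values adjusted by Benjamini-Hochberg over the 12150 genes. Of the 4 genes, 1 passed an adjusted p of 0.05, Slc17a7 in Aβ, and none passed in vehicle. Among all genes tested 41.1% passed in Aβ and 32.3% in vehicle, so being called was common and the members were not called more often than genes at large.

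Slc17a7 was lower on ribosomes in Aβ, with a difference of -0.59 ± 0.13 (SE) and a 95% interval of -0.88 to -0.30 (limma, adjusted p = 0.0091). A lower level on ribosomes was called for 21.5% of the genes tested. Its scaled FPKM in Aβ were 305, 300.5 and 246 in ribosome RNA and 414, 423 and 439 in total RNA, so that the groups did not overlap, as was so in this direction for 3399 of the 12150 genes. In vehicle the difference was -0.38 ± 0.23, with an interval of -0.92 to 0.15 (limma, adjusted p = 0.228). There, library 2 at 421 scaled FPKM reached into the range of the total libraries, 408 to 469. Without library 2 the vehicle difference was -0.56 (limma, adjusted p = 0.0638), and without library 10 it was -0.14 (adjusted p = 0.454). In FPKM as deposited the vehicle difference was -0.73 and passed (limma, adjusted p = 0.0232), but on that scale the median of all genes was itself at -0.30, and relative to it Slc17a7 stood at -0.43. In Aβ the corresponding values were -0.85, -0.23 and -0.63. After scaling, the ribosome and total ranges of each of the 4 genes overlapped, whereas 19.1% of all genes lay wholly higher and 20.6% wholly lower in the 6 ribosome libraries.

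Gad1 differed by 0.76 ± 0.31 (SE) in vehicle, with a 95% interval of 0.03 to 1.49, and by 0.79 ± 0.32 in Aβ, with an interval of 0.04 to 1.55. Neither passed the adjusted threshold (limma, adjusted p = 0.0992 in vehicle and 0.0837 in Aβ). The difference depended on 1 library in each treatment. Without vehicle library 2 it was 1.15 ± 0.14 (limma, adjusted p = 0.0021), and without Aβ library 1 it was 1.23 ± 0.09 (adjusted p = 0.0016). Leaving those libraries out 39.9% and 39.2% of all genes passed. Because libraries 1 and 2 are the ones low in the GABA genes, these values show how much each single library weighs and are not separate evidence for the difference.

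Gad2 differed by -0.23 ± 0.73 (SE) in vehicle and by -0.09 ± 0.48 in Aβ, and the intervals of -1.94 to 1.47 and -1.20 to 1.02 leave room for changes in either direction (limma, adjusted p = 0.826 and 0.897). Without vehicle library 2 the difference was 0.75 ± 0.15, past the threshold and of the opposite sign (limma, adjusted p = 0.0088). Without Aβ library 1 it was 0.53 ± 0.21, also of the opposite sign, and did not pass (limma, adjusted p = 0.0851). These libraries are the lowest in Gad2, so both values show how much a single library weighs and are not separate evidence. Without vehicle library 2, 39.9% of all genes tested passed. Slc32a1 differed by 0.18 ± 0.15 in vehicle and 0.12 ± 0.24 in Aβ (limma, adjusted p = 0.391 and 0.709), and as FPKM were deposited these became -0.16 and -0.14. Relative to the median of all genes on that scale they stood at 0.14 and 0.09.

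**Figure D2:**
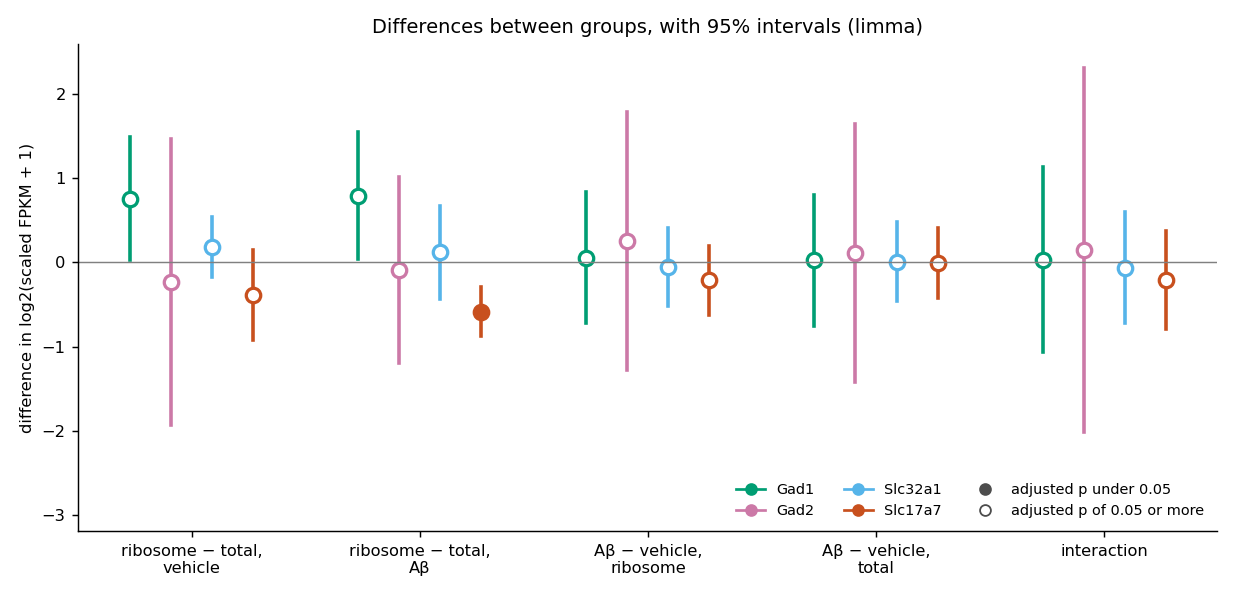
Differences in log2(scaled FPKM + 1) for the 4 genes in 5 comparisons, with limma 95% intervals as bars; filled points have an adjusted p under 0.05 and open points do not, and the interaction is the fraction difference in Aβ minus that in vehicle. The filled point is Slc17a7 in Aβ, at -0.59, and the intervals of Gad2 are the widest of the 4 genes in every comparison.

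Taken within each run of title numbers, the fraction difference of the GABA genes varied from run to run in both treatments. For Gad1 it was -0.03, 1.42 and 0.90 in vehicle and -0.09, 1.26 and 1.21 in Aβ, from the first run to the last. For Gad2 it was -2.09, 0.54 and 0.84 in vehicle and -1.19, 0.30 and 0.63 in Aβ. Both decarboxylase genes were thus above total RNA in the runs of libraries 5 to 8 and 9 to 12 and not in that of libraries 1 to 4. For Slc32a1 it was 0.08, 0.31 and 0.15 in vehicle and -0.31, 0.21 and 0.46 in Aβ. For Slc17a7 it was 0.05, -0.20 and -1.001 in vehicle and -0.44, -0.49 and -0.83 in Aβ, lowest in the last run in both.

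**Figure D3:**
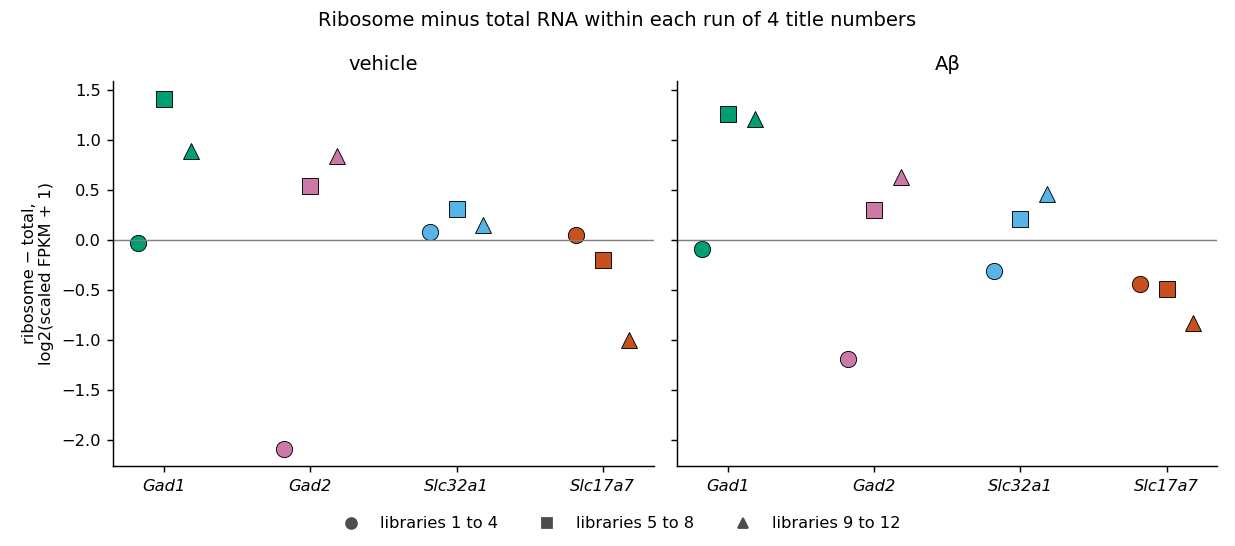
Ribosome minus total in log2(scaled FPKM + 1) for each gene within each run of 4 title numbers, in vehicle (left) and Aβ (right); each point is 1 ribosome library minus 1 total library. Gad2 lies at -2.09 and -1.19 in libraries 1 to 4 and above 0 in the other runs, and Slc17a7 is lowest in libraries 9 to 12.

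The spread over ribosome libraries was set against that of all genes. From the lowest to the highest of the 6 ribosome libraries Gad2 spanned 3.16 in log2(scaled FPKM + 1), and 41 of the 12150 genes spanned more. Gad1 spanned 1.31, Slc32a1 1.03 and Slc17a7 0.85, beside a median of 0.70 over all genes. More was spanned by 1557 genes for Gad1, 2921 for Slc32a1 and 4347 for Slc17a7. Over the 6 total libraries the spans were 0.45, 0.29, 0.34 and 0.20 for Gad2, Gad1, Slc32a1 and Slc17a7, beside a median of 0.30. The wide span of Gad2 thus belonged to the pellets.

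**Figure D4:**
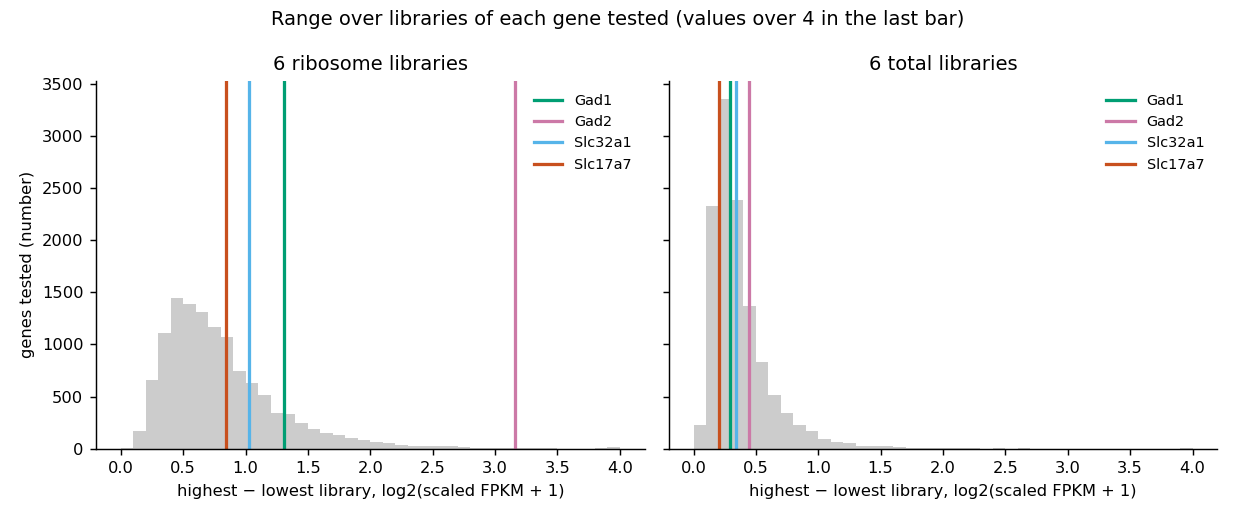
Histograms of the range of each of the 12150 genes tested, as highest minus lowest library in log2(scaled FPKM + 1), over the 6 ribosome (left) and 6 total libraries (right), with lines for the 4 genes; values over 4 are in the last bar. Gad2, at 3.16, stands in the far tail of the ribosome libraries and at 0.45 in the total ones.

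By run, the mean of ribosome libraries 9 and 10 exceeded that of libraries 1 and 2 by 2.65 for Gad2 in log2(scaled FPKM + 1), a 6.29-fold difference that 0.165% of genes surpassed. The same difference was 1.18 for Gad1, 0.68 for Slc32a1 and -0.58 for Slc17a7, while the median over all genes was 0.01. In size, 4.1% of the genes tested differed more than Gad1, 16.7% more than Slc32a1 and 22.9% more than Slc17a7. Libraries 1 and 2 lay below the other 4 ribosome libraries, with no overlap, for 3 of the 4 genes, Gad1, Gad2 and Slc32a1, and 13.6% of all genes tested did so. Libraries 9 and 10 lay above the other 4 for Gad2 and Slc32a1, as did 21.3% of all genes, and below them for Slc17a7, as did 19.6%. In total RNA, libraries 11 and 12 exceeded libraries 3 and 4 by 0.07 for Gad1, 0.28 for Gad2, 0.26 for Slc32a1 and 0.14 for Slc17a7. These figures describe runs whose contrast was noticed in the data and carry no test. Libraries 1 and 2 combined the lowest depth and the smallest top 20 share of the pellets with the low GABA values. The other 4 pellets did not follow that order. Libraries 9 and 10 were shallower than libraries 5 and 6, with smaller top 20 shares, and were higher in Gad2. The part of depth and top 20 share in the result was not tested.

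A ratio of 2 genes within a library does not depend on scaling between libraries. Slc17a7 was 10.9 to 12.4 times Gad1 in the 6 total libraries. In ribosome RNA the ratio was 11.5, 3.98 and 3.05 in vehicle libraries 2, 6 and 10, and 8.54, 3.40 and 2.74 in Aβ libraries 1, 5 and 9. The ratio was thus inside the total range in library 2, below it in library 1 and lower still in the other 4 pellets.

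The ratio of Slc17a7 to Gad2 was 11.4 to 14.6 in total RNA. In vehicle pellets it was 72.3, 7.83 and 3.92, and in Aβ pellets 24.1, 7.81 and 4.10. It therefore lay above the total range in libraries 1 and 2 and below it in the other 4. The ratio to the vesicular carrier Slc32a1 was 8.70 to 10.1 in total RNA and 9.30, 7.06 and 4.06 in vehicle pellets and 9.01, 6.06 and 3.52 in Aβ pellets. Libraries 1 and 2 were inside the total range of this ratio and the other 4 pellets below it.

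The pair of decarboxylase genes did not keep a fixed ratio on ribosomes. Gad1 was 0.994 to 1.33 times Gad2 in total RNA. In ribosome RNA it was 6.26, 1.97 and 1.29 times Gad2 in vehicle and 2.82, 2.30 and 1.497 times in Aβ. Of the 6 pellets, 5 lay above the whole range of the total libraries, and library 10 lay inside it.

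**Figure D5:**
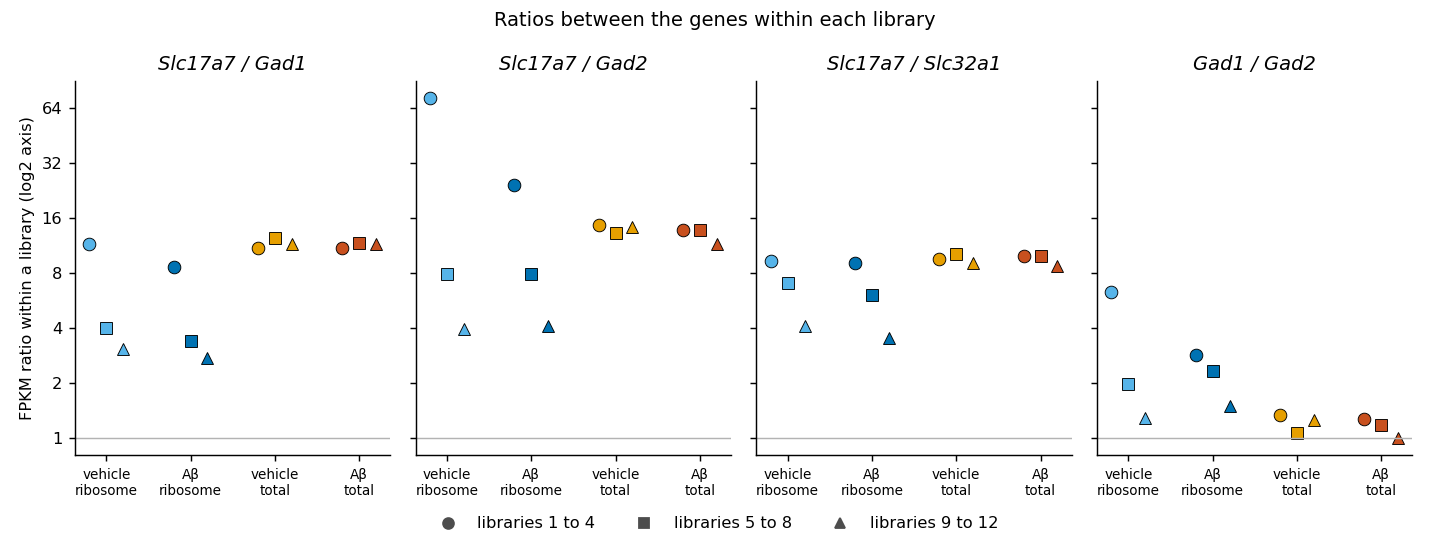
FPKM ratios within each library (log2 axis) for Slc17a7 over each GABA gene and for Gad1 over Gad2; points are libraries, shapes mark runs of 4 title numbers and the line marks a ratio of 1. Total libraries form tight clusters, and pellets run from 72.3 to 3.92 for Slc17a7 over Gad2.

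The second question was whether Aβ changed these mRNAs in either fraction. In ribosome RNA no member passed, and none of the 12150 genes did (0.0%; limma, with 178 genes at an unadjusted p under 0.05, and 0 genes with limma on voom weights). Aβ minus vehicle was 0.06 for Gad1, with a 95% interval of -0.72 to 0.84, and 0.26 for Gad2, with an interval of -1.28 to 1.79. It was -0.05 for Slc32a1, with an interval of -0.52 to 0.42, and -0.21 for Slc17a7, with an interval of -0.63 to 0.20. The adjusted p was 0.9997 for each (limma). The intervals are wide enough to hold changes of 1.5-fold or more in Gad1, Gad2 and Slc17a7. They take their spread from ribosome and total libraries together. A separate fit of the 6 ribosome libraries gave wider 95% intervals. These were -0.96 to 1.07 for Gad1, -1.73 to 2.24 for Gad2, -0.65 to 0.55 for Slc32a1 and -0.78 to 0.35 for Slc17a7. There the interval of Slc32a1 also held a 1.5-fold decrease, and no member passed.

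The comparison was also made run by run. Within runs, Aβ minus vehicle in ribosome RNA was -0.03, -0.02 and 0.23 for Gad1 and 1.002, -0.24 and 0.01 for Gad2. The large Gad2 value was that of libraries 1 and 2, both of which were low. It was -0.41, -0.03 and 0.28 for Slc32a1 and -0.46, -0.25 and 0.07 for Slc17a7, so neither moved one way in all 3 runs. A block for each run and fraction, a setting added after seeing the data, narrowed the intervals. They became -0.14 to 0.26 for Gad1, -0.24 to 0.75 for Gad2, -0.34 to 0.24 for Slc32a1 and -0.48 to 0.06 for Slc17a7. Still none of the 12150 genes tested passed.

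In total RNA Aβ minus vehicle was 0.02 for Gad1, 0.11 for Gad2, 0.01 for Slc32a1 and -0.01 for Slc17a7 (limma, adjusted p = 1.0 for each). None of the 12150 genes tested passed (0.0%, limma, with 20 at an unadjusted p under 0.05, and 0 with voom weights). Within runs the values ranged from -0.09 to 0.13 for Gad1, 0.00 to 0.23 for Gad2, -0.03 to 0.07 for Slc32a1 and -0.09 to 0.04 for Slc17a7. The fit takes its spread from ribosome and total libraries together, and its interval ran from -1.42 to 1.64 for Gad2. A separate fit of the 6 total libraries gave 95% intervals of -0.17 to 0.22 for Gad1, -0.13 to 0.36 for Gad2, -0.25 to 0.26 for Slc32a1 and -0.20 to 0.18 for Slc17a7, and no member passed there either (limma, adjusted p = 1.0 for each).

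The third question was whether the fraction difference itself changed with Aβ. The interaction was 0.03 ± 0.50 (SE) for Gad1, 0.15 ± 0.99 for Gad2, -0.06 ± 0.30 for Slc32a1 and -0.20 ± 0.27 for Slc17a7, and none passed (limma, adjusted p = 1.0 for each). Across all genes tested 0.0% passed (limma), with 84 at an unadjusted p under 0.05 and 0 with voom weights. For Slc17a7, called in Aβ and not in vehicle, the interval of the interaction, -0.79 to 0.38, holds 0, so the fraction difference was not shown to differ between treatments. Both fraction comparisons have their own total libraries and share none.

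Across the 12 libraries the GABA genes moved together loosely. The Pearson correlation of log2(scaled FPKM + 1) was 0.73 between Gad1 and Slc32a1, 0.63 between Gad2 and Slc32a1 and 0.60 between Gad1 and Gad2, and that of Slc17a7 was -0.73 with Gad1, -0.46 with Slc32a1 and -0.39 with Gad2. These libraries share fraction and run, so the values are given as a description. For Slc32a1, 91 of the 12149 other genes tested correlated more closely than Gad1 and 245 more closely than Gad2. For Gad1, 979 genes were closer than Slc32a1, and for Gad2, 975 were, so that neither decarboxylase gene had another of the 4 among its nearest. The closest gene of any kind reached 0.99 for Gad1, 0.97 for Gad2, 0.92 for Slc32a1 and 0.98 for Slc17a7, and none of these can be named because the table holds no symbols.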

How the data were processed

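Polyadenylated RNA of 12 libraries was sequenced as paired ends. Per the labels and the study's methods, the authors aligned reads with Bowtie 2.2.3 and TopHat 2.0.12, counted them with HTSeq 0.6.1 and deposited FPKM per gene; genome build, annotation and strandedness are not given in the sources used here. The 4 symbols came with the list of members; none of the table's identifiers matched the RefSeq gene table, so no coordinates or sequences are shown and a list of 80 genes and the cell type markers could not be used. The last line of the table was incomplete and was left out. Members and lists were chosen with earlier results of these data known. The genes to be named were the 4 members and, where symbols could be paired, those most like them.

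Each library's FPKM were scaled by its size factor (median of ratios, 0.83 to 1.16). Genes averaging 1 FPKM or more were fitted as log2(scaled FPKM + 1) with limma 3.58.1 in R 4.3.3 (empirical Bayes with trend, Benjamini-Hochberg), so that folds of low genes are understated. Fraction differences came from 6 libraries per treatment, treatment differences and the interaction from 1 fit of all 12. Whole fragments were recovered from the FPKM steps for all 12150 genes tested, and give the depth and exact Poisson intervals. The tolerance was 0.003 of a whole number, with a looser one in a second search for genes the first missed. The steps were tested on simulated data. Alternatives covered scaling, pseudocount (0.1), filters, weights, single fits, each library left out, and the runs as a block. Runs are an assumption: within a fraction, the deviations of same-run libraries from their group means correlated across genes at 0.41 to 0.70, and between fractions at -0.20 to 0.07.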

Additional observations from a re-analysis of the deposited data

How the results depend on the processing

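Of 440 values of the 4 genes under alternative settings, 385 kept their sign and side of the threshold and 48 changed sign. Many settings could not move the estimate, so the share that kept its sign does not measure robustness. The filters, the fit without trend, the blocks and the joint or separate fits changed only the SE and p-values. For Aβ minus vehicle, so did leaving out a library of the other fraction. Of all 440, 10 passed the threshold anew, 3 of them (Gad2 in vehicle) with the opposite sign. The fraction differences of the log2 ratios between genes moved by less than 1 SD of the ribosome libraries in all 56 cases, but those SDs are large, and Slc17a7 over Gad2 ran from -1.34 to 0.76 in vehicle and from -1.19 to 0.09 in Aβ with 1 library left out, beside -0.10 and -0.49 with all. Slc17a7 in Aβ kept its call and sign throughout. Array weights gave fraction differences in vehicle of 1.22 for Gad1, 0.56 for Gad2 and 0.22 for Slc32a1, all past the threshold, with 8545 genes called. They gave Aβ minus vehicle of -0.44 for Gad1 and -0.59 for Gad2 in ribosome and 0.021 for Slc17a7 in total RNA, and interactions of -0.47 for Gad1 and -0.72 for Gad2. FPKM as deposited gave -0.73 for Slc17a7 in vehicle, now called, and turned Slc32a1 to -0.16 in vehicle, -0.14 in Aβ, 0.014 for Aβ in ribosome RNA, -0.0013 in total RNA and 0.015 in the interaction. With no filter 1 gene was called for Aβ in total RNA and 1 in the interaction.

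A pair of settings, besides the block named in the report, was added after seeing the data. Without ribosome libraries 1 and 2 the fraction difference was 1.15 and 1.23 for Gad1 (vehicle and Aβ) and 0.75 and 0.53 for Gad2. These values repeat the fits without library 2 (vehicle) and library 1 (Aβ). With both left out, Aβ minus vehicle in ribosome RNA was -0.12 for Gad2 and 0.12 for Slc32a1, and the interaction -0.23 and 0.12. Without libraries 9 and 10, Slc32a1 in Aβ was -0.13, which repeats the fit without library 9. Gad1 for Aβ in ribosome RNA was then -0.026 and its interaction -0.0505. The replicate block by runs changed no member's call. The study describes paired sequencing of the fractions, but neither its text nor the labels say that the runs are the pairs.

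Leaving out 1 library at a time gave fraction differences in vehicle of 0.51 to 1.15 (Gad1), -0.82 to 0.75 (Gad2), 0.09 to 0.28 (Slc32a1) and -0.56 to -0.14 (Slc17a7), and in Aβ of 0.57 to 1.23, -0.55 to 0.53, -0.13 to 0.38 and -0.64 to -0.49. For Aβ minus vehicle in ribosome RNA they were -0.33 to 0.49, -0.73 to 0.87, -0.31 to 0.21 and -0.46 to -0.03, and in total RNA -0.052 to 0.093, 0.0034 to 0.17, -0.074 to 0.11 and -0.043 to 0.057. Interactions were -0.35 to 0.47, -0.84 to 0.76, -0.31 to 0.20 and -0.45 to -0.02. Genes called numbered 1712 to 5253 in vehicle, 3025 to 5816 in Aβ and 0 to 1 for Aβ in total RNA and the interaction. The counts fell by over 1.5 times without any 1 total library (vehicle 4, 8 or 12, Aβ 3, 7 or 11) or without vehicle ribosome library 6 (2562 genes), and the 1 gene appeared without vehicle total library 8. The cause of these shifts was not tested. The width of the intervals in ribosome RNA limits what these comparisons can show.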
